A study of Mus musculus with 2 samples.

Results

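The 33 genes described here carry fatty acids into heart cells, oxidise them in mitochondria and set how much fat is burned or stored. They are named genes of this textbook pathway, listed by symbol with earlier results of these data known, and all 33 were found among the 27999 features of the count table. Droplet RNA libraries came from the right ventricle of C57/BL6J pups on postnatal day 21. All pups had the genotype CBP flox/flox, p300 flox/flox and Trap flox/flox (written trap for the sample of library 2), and all received AAV9, a virus used to deliver genes to heart muscle, on postnatal day 1 to knock out p300 and CBP. These are related lysine acetyltransferases, encoded by Ep300 and Crebbp. The samples form 1 group of 2 libraries with no untreated sample, so no value below is an effect of the knockout. The labels give neither what the AAV9 carries and under which promoter nor the number of animals in a library. Their protocols describe frozen tissue digested with collagenase and enriched for CD45+ cells on magnetic beads, without saying which fraction was sequenced. Macrophage-like cells, the only CD45+ type among the named classes, made up 2.28% and 4.94% of the cells kept in libraries 1 and 2, and cardiomyocyte-like cells 63.2% and 26.3%, so most cells kept were not of a CD45+ type. Genes were compared across cell types, and between cardiomyocytes in which a GFP transcript was or was not counted.

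Heart muscle after birth turns from glucose and lactate to fatty acids as its main fuel. Lipoprotein lipase at the capillary wall frees fatty acids, CD36 and fatty acid transport proteins take them up, and binding proteins and acyl-CoA synthetases trap them in the cell. Carnitine carries the acyl group across the mitochondrial membranes, the beta-oxidation spiral shortens it step by step, and electron transfer flavoprotein hands the electrons to the respiratory chain. Many of the genes are known targets of PPAR and ERR nuclear receptors with the coactivators Ppargc1a and Ppargc1b.

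Promoter sequence is shown for Ucp3, Pdk4 and Plin5, the 3 genes with the greatest cardiomyocyte difference of the 32 that passed the count filter. It is also shown for the stretch between the starts of Hadha and Hadhb. These genes encode the paired subunits of the mitochondrial trifunctional protein. They are read in opposite directions from starts 86 bases apart in GENCODE M21. Sequences are from RefSeq promoter windows (build GRCm38.p6), 5′ to 3′ on the strand of the gene, trimmed to bases outside the gene bodies. Capitals mark AGGTCA, the half-site that nuclear receptors bind.
Hadha-Hadhb, chr5:30155163-30155247 (+): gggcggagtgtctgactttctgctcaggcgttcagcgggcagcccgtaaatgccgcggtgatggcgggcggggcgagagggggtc
Ucp3, chr7:100472741-100472989 (+): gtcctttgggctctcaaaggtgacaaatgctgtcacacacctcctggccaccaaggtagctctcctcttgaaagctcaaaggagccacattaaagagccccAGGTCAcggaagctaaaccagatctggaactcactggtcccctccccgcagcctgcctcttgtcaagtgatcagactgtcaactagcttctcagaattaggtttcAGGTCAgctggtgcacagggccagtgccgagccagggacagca
Pdk4, chr6:5496310-5496528 (-): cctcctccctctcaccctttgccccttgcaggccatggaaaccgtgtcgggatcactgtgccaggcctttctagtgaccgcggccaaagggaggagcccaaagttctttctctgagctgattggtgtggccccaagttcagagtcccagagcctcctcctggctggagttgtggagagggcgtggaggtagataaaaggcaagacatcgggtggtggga
Plin5, chr17:56117597-56117798 (-): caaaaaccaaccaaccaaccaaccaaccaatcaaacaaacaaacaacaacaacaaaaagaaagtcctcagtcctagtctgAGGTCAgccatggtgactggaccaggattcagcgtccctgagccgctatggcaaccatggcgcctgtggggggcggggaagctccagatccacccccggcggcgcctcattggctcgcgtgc

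RefSeq windows of 300 bases, from 250 before to 50 after a start, were found for 26 of the 33 genes, and not for Fabp4, Lpl, Angptl4, Cpt1b, Acaa2, Decr1 and Dgat2. AGGTCA or its reverse complement TGACCT occurred in 8 of the 30 windows of these genes (26.7%) and in 16.3% of all 32851 windows. The genes with it were Acadm, Acadvl, Cd36, Cpt1a, Echs1, Plin5 and Ucp3, and the Ucp3 window held it at a pair of places. The direct repeat AGGNCANAGGNCA, the form PPAR binds with RXR, and TCAAGGTCA, the extended half-site of ERR, were searched on both strands and occurred in 0 windows of these genes, against 0.381% and 0.423% of all windows. AGGTCA lies inside TCAAGGTCA, and a match to the direct repeat may or may not hold it. These are letter matches only.

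Of 22183 barcodes, 20250 were kept as cells, 11770 from library 1 and 8480 from library 2, with 57982200 and 50199793 unique molecule counts (UMIs) before filtering. 17 barcode sequences occurred in both libraries. Cells were grouped by expression with the 33 genes left out, and groups were named from marker genes. Cardiomyocyte-like cells numbered 7437 and 2229 with a median of 4760 and 7397 UMIs, and all 12 of their marker genes were detected in both libraries. The 6 other classes with at least 50 cells in each library (endothelial-, endocardial-, pericyte-, fibroblast-, macrophage-, and epicardial or mesothelial-like) held 51 to 2459 cells per library. The libraries stood apart. Transcripts of 4 Y-linked genes summed to 1.01 CPM (counts scaled to a library total of 1000000) in library 1 and 437 in library 2, Xist had 1242 and 531 CPM, so library 2 held both, and hepatocyte-like cells (267) were found in library 1 alone. In the 6 other classes the 12 cardiomyocyte markers summed to 14.4% to 24.3% of their cardiomyocyte-like level in library 1 and 2.85% to 6.81% in library 2, so RNA of muscle genes was counted in every class. Levels are given for each library. Ep300 had 110.3 CPM in library 1 and 116 in library 2 in cardiomyocyte-like cells, and Crebbp 384 CPM in library 1 and 464 in library 2. Counts at the 3′ end need not lie in the deleted exons, so these levels do not check the deletion.

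Cardiomyocyte-like cells held more RNA of nearly all these genes than the mean of the 6 other classes. Of the 33 genes, 32 had counts enough for the test, and these 32 would also have passed on the sums of the other classes alone. In edgeR's quasi-likelihood test on counts summed per library and class (n = 2 libraries, Benjamini-Hochberg adjusted p under 0.05 over all genes), 31 were higher and 1, Fabp4, was lower. Of all 13937 genes tested, 66.5% were called: 35.8% were called higher and 30.7% lower. The median log2 difference was 1.92 for the 32 genes and 0.04 for all genes. From library 1 alone the median of the 32 genes was 1.53, and from library 2 alone 2.20, with no test. Without scaling for RNA composition the median of all genes fell to -0.54, the share of calls that were higher fell from 53.8% to 27.7%, and 26 of the 32 remained called higher, while 31 still lay above that all-gene median. Without pairing the classes of a library (no replicate block), Acads, Acot2 and Etfb lost their calls. The fit holds the library as a block, so a shift shared by all classes of a library is removed. The p-values rest on how class differences varied between these 2 libraries, pooled over classes (6 residual degrees of freedom). They also rest on other genes, because edgeR draws the spread of each gene toward a trend over all genes tested. The labels do not say that the libraries came from separate animals, so the spread between libraries need not be a spread between animals. CPM here are scaled to the UMIs of the class in that library. By CPM, 22 of the 33 genes were highest in cardiomyocyte-like cells in both libraries, and the same share over all genes was not computed.

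**Figure D1:**
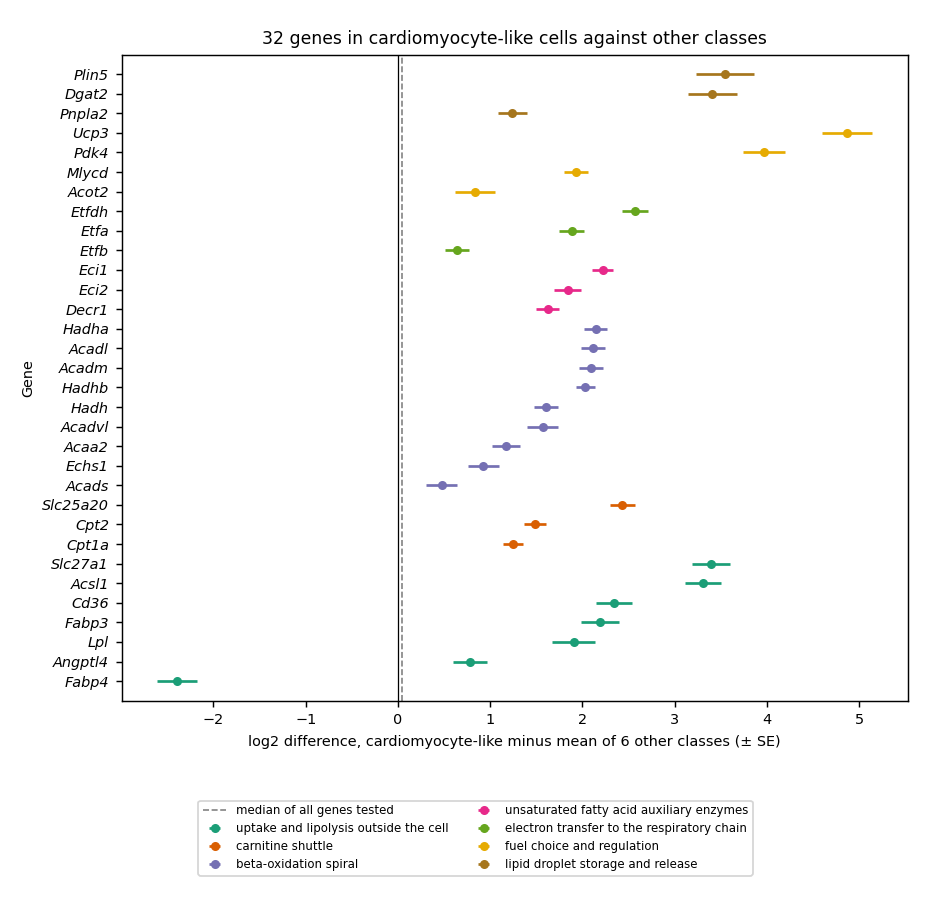
Log2 difference (x axis, ± SE from edgeR, n = 2 libraries) of 32 genes (y axis, coloured by role) between cardiomyocyte-like cells and the mean of 6 other classes, with the median of all genes tested as a dashed line at 0.04. All lie right of 0 except Fabp4 at -2.39, and Ucp3 lies farthest right at 4.87.

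**Figure D2:**
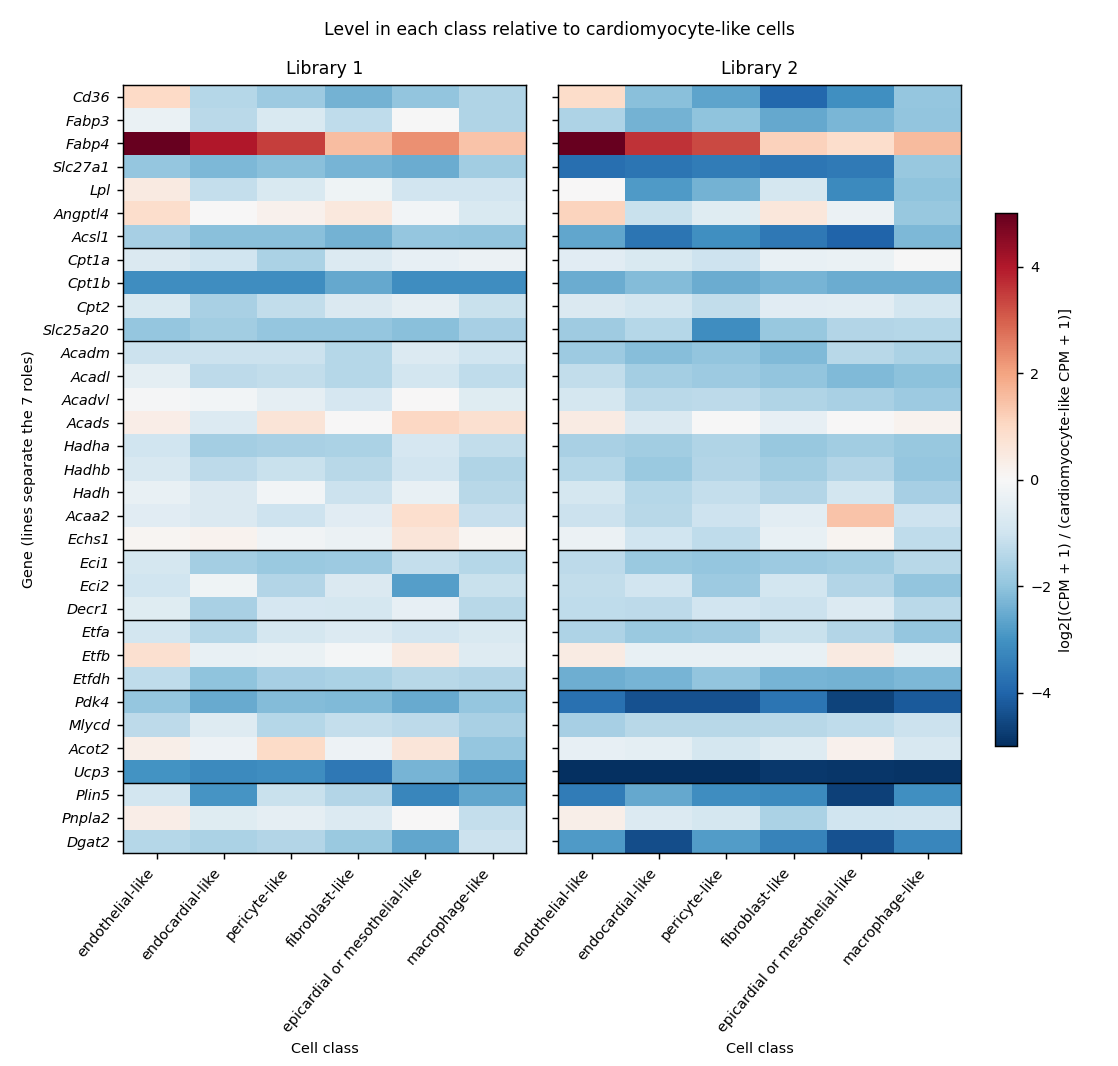
Colour gives the log2 ratio of CPM plus 1 in each of 6 classes (columns) to cardiomyocyte-like cells for 33 genes (rows), with 1 panel per library. Blue is lower than in cardiomyocyte-like cells and red higher. Fabp4 is red in every column of both panels, Cd36 is red for endothelial-like cells, and Acaa2 for epicardial or mesothelial-like cells. Cpt1b has so few counts that adding 1 compresses its ratios.

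Of the uptake genes, Acsl1, Slc27a1 and Fabp3 were highest in cardiomyocyte-like cells and Cd36, Fabp4, Lpl and Angptl4 in endothelial-like cells, in both libraries. In cardiomyocyte-like cells 6 of the 7 were called higher and 1 lower against the average of the 6 classes, where 35.8% of all genes were called higher and 30.7% lower. Cd36, the main fatty acid translocase (chr5:17781690-17888801 on GRCm38), had 2064 CPM in library 1 and 1889 in library 2 in cardiomyocyte-like cells and 4142 CPM in library 1 and 3577 in library 2 in endothelial-like cells. Both classes stood above the other 5, which reached at most 771 CPM in library 1 and 494 in library 2. Its cardiomyocyte difference was log2 2.34 ± 0.19, adjusted p = 2.14e-08. Fabp4, the fatty acid binding protein of capillary endothelium, adipocytes and macrophages (chr3:10204088-10208576), had 29.8 CPM in library 1 and 26.9 in library 2 in cardiomyocyte-like cells. Endothelial-like cells had 2263 CPM in library 1 and 2031 in library 2, and the 5 remaining classes lay between these, so the cardiomyocyte-like values were the lowest of the 7 classes in each library. The difference was log2 -2.39 ± 0.22, adjusted p = 6.96e-08. After thinning each cell to 1000 UMIs, 82.9% and 71.3% of endothelial-like cells in libraries 1 and 2 had a Fabp4 UMI (89.6% and 85.8% unthinned), against 3.03% and 3.55% of cardiomyocyte-like cells (13.4% and 19.7% unthinned). Thinning left out 106 and 51 endothelial-like cells and 17 and 1 cardiomyocyte-like cells, and median depths were 1574 and 2234 against 4760 and 7397 UMIs.

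Lipoprotein lipase, Lpl (chr8:68880491-68907448), had 862 CPM in library 1 and 746 in library 2 in cardiomyocyte-like cells and 1184 CPM in library 1 and 748 in library 2 in endothelial-like cells, with fibroblast-like cells next at 747 and 406 CPM. In library 2 the counting intervals of the first pair overlapped (734 to 759 and 714 to 783 CPM). The cardiomyocyte difference was log2 1.91 ± 0.23, adjusted p = 2.23e-06. Angptl4, a secreted inhibitor of lipoprotein lipase, had 20.03 CPM in library 1 and 14.3 in library 2 in cardiomyocyte-like cells and 38.2 CPM in library 1 and 32.1 in library 2 in endothelial-like cells, where it was highest in both libraries. Its difference was log2 0.78 ± 0.18, adjusted p = 0.00137, and without composition scaling it was not called (log2 0.19). Acsl1, an acyl-CoA synthetase of muscle, had 558 CPM in library 1 and 435 in library 2 in cardiomyocyte-like cells. Slc27a1, a fatty acid transport protein, had 489.7 CPM in library 1 and 252 in library 2, and Fabp3, the muscle fatty acid binding protein, had 253 CPM in library 1 and 183 in library 2. Their log2 differences were 3.31, 3.39 and 2.19. In library 1 the Fabp3 level of epicardial or mesothelial-like cells, 249 CPM (counting interval 187 to 324), was not separated from that of cardiomyocyte-like cells.

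The carnitine shuttle genes were all highest in cardiomyocyte-like cells. Cpt1b, the muscle form of the enzyme that loads acyl groups onto carnitine (chr15:89416405-89425863), had 7.50 CPM in library 1 and 4.62 in library 2 there, from 317 and 88 UMIs. In the 6 other classes it had 0 to 0.439 CPM, where 3 counts, the limit that a count of 0 allows, are worth 0.355 to 13.6 CPM, and it missed the filter for the test. With no filter on low counts the edgeR estimate was log2 7.19 ± 0.64, which rests on counts near 0 in the other classes. Cpt1b was called higher in that fit and with doublets kept. Its gene body lies inside the annotated readthrough gene Gm44502 on the same strand, which is not a feature of the count table. Whether reads of Gm44502 were counted as Cpt1b was not tested. Cpt1a, the form shared by most tissues, had 122 CPM in library 1 and 101 in library 2 in cardiomyocyte-like cells and 99.9 CPM in library 1 and 99.95 in library 2 in macrophage-like cells. In library 2 these levels were not separated by their counting intervals (96.3 to 105 and 83.4 to 119 CPM). Cpt2, the inner-membrane carnitine transferase, had 55.8 CPM in library 1 and 34.9 in library 2, and Slc25a20, the carnitine carrier, had 98.6 CPM in library 1 and 77.98 in library 2. In library 1 the counting interval of Cpt2 in epicardial or mesothelial-like cells (18.6 to 77.2 CPM) overlapped that of cardiomyocyte-like cells. Cpt1a, Cpt2 and Slc25a20 differed by log2 1.25, 1.49 and 2.43.

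All 9 genes of the beta-oxidation spiral were called higher in cardiomyocyte-like cells, with log2 differences from 0.47 to 2.14. Hadha and Hadhb differed by log2 2.14 ± 0.13, adjusted p = 6.16e-10 and log2 2.03 ± 0.11, adjusted p = 1.96e-10, no closer to each other than Acadm and Acadl, given below. Hadha had 297 CPM in library 1 and 279.5 in library 2 in cardiomyocyte-like cells, and Hadhb had 275 CPM in library 1 and 221 in library 2. No other class overlapped these values within a library. Acadm and Acadl, the medium- and long-chain acyl-CoA dehydrogenases, were higher by log2 2.09 and 2.11, Acadvl, for very long chains, by 1.57 and Hadh, the hydroxyacyl-CoA dehydrogenase of shorter chains, by 1.60. In cardiomyocyte-like cells Acadm had 267 CPM in library 1 and 246 in library 2, Acadl had 247 CPM in library 1 and 236 in library 2 and Hadh had 92.8 CPM in library 1 and 61.7 in library 2. Acadvl was not separated between cardiomyocyte-like and epicardial or mesothelial-like cells in library 1 (93.02 and 94.9 CPM). Acads, the short-chain dehydrogenase, had 14.8 CPM in library 1 and 12.3 in library 2 in cardiomyocyte-like cells and 8.73 to 31.6 CPM in library 1 and 7.18 to 16.9 in library 2 elsewhere, so the classes overlapped. Its difference was log2 0.47 ± 0.17, adjusted p = 0.0202. Without composition scaling its estimate was log2 -0.11, with adjusted p = 0.599. The Acads call was lost in 6 of the 9 alternative fits: without scaling, without the replicate block, in DESeq2, at Leiden resolution 0.5, with the stricter cell filter and with doublets kept. Echs1, the enoyl-CoA hydratase, had 41.6 CPM in library 1 and 35.7 in library 2 in cardiomyocyte-like cells and 63.3 CPM in library 1 and 39.7 in library 2 in epicardial or mesothelial-like cells, with a cardiomyocyte difference of log2 0.93 ± 0.17, adjusted p = 0.000173. That call was lost without composition scaling. Acaa2, the thiolase that closes the spiral, had 171 CPM in library 1 and 108 in library 2 in cardiomyocyte-like cells. It had 307 CPM in library 1 and 295 in library 2 in epicardial or mesothelial-like cells, above cardiomyocyte-like cells in both libraries. Its difference from the mean of all 6 classes was log2 1.17 ± 0.15, adjusted p = 5.28e-06.

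The isomerases Eci1 and Eci2 and the reductase Decr1, which prepare unsaturated fatty acids for the spiral, were higher by log2 2.22, 1.84 and 1.62. In cardiomyocyte-like cells Eci1 had 105 CPM in library 1 and 75.8 in library 2, Eci2 had 98.1 CPM in library 1 and 88.1 in library 2 and Decr1 had 90.9 CPM in library 1 and 70.8 in library 2. Of the electron transfer genes, Etfdh, the membrane oxidoreductase, was higher by 2.57 and Etfa, a subunit of electron transfer flavoprotein, by 1.88. Etfdh had 145 CPM in library 1 and 166 in library 2 in cardiomyocyte-like cells, and Etfa had 381 CPM in library 1 and 352 in library 2. Etfb, the partner subunit of Etfa, had 49.03 CPM in library 1 and 24.1 in library 2 in cardiomyocyte-like cells. Endothelial-like cells had 86.7 CPM in library 1 and 32.5 in library 2, and epicardial or mesothelial-like cells had 67.8 CPM in library 1 and 33.5 in library 2. The cardiomyocyte values thus lay within the range of the other classes in both libraries, with log2 0.64 ± 0.13, adjusted p = 0.000372. Without scaling the Etfb call was lost. Etfb overlaps the annotated gene Gm45233 on the same strand, so reads of the pair may be mixed.

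Ucp3 and Pdk4, listed with the genes that regulate fuel choice, had the greatest differences of the 32. Ucp3, an inner-membrane carrier of muscle mitochondria (chr7:100472990-100486432), had 165 CPM in library 1 and 97.7 in library 2 in cardiomyocyte-like cells. The other 6 classes ranged over 12.7 to 31.6 CPM in library 1 and 1.23 to 2.48 in library 2. The difference was log2 4.87 ± 0.27, adjusted p = 3.28e-10. Pdk4, the kinase that switches off pyruvate dehydrogenase when fat is burned (chr6:5483351-5496309), had 575 CPM in library 1 and 575 in library 2, nearly the same in both libraries. The other 6 classes ranged over 98.96 to 152 CPM in library 1 and 22.4 to 44.8 in library 2. It differed by log2 3.97 ± 0.23, adjusted p = 3.8e-10. Mlycd, which breaks down the Cpt1 inhibitor malonyl-CoA, had 78.98 CPM in library 1 and 51.8 in library 2 in cardiomyocyte-like cells and was higher by log2 1.93. Acot2, a mitochondrial acyl-CoA thioesterase, had 17.6 CPM in library 1 and 10.2 in library 2 in cardiomyocyte-like cells and was highest in pericyte-like cells in library 1 (35.2 CPM, interval 21.8 to 53.8) and in epicardial or mesothelial-like cells in library 2 (12.1 CPM, interval 8.41 to 16.8). Its difference was log2 0.84 ± 0.22, adjusted p = 0.00316 and was lost without scaling. Acot2 has the near-identical copy Acot1, so its counts are uncertain.

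Among the lipid droplet genes, Plin5, the droplet coat that links droplets to mitochondria (chr17:56111601-56117596), had 51.4 CPM in library 1 and 33.5 in library 2 in cardiomyocyte-like cells. The other 6 classes ranged over 4.52 to 26.9 CPM in library 1 and 0.345 to 4.79 in library 2. The difference was log2 3.54 ± 0.31, adjusted p = 5.67e-08. Dgat2, which makes triglyceride, had 114 CPM in library 1 and 61.6 in library 2 in cardiomyocyte-like cells and was higher by log2 3.41. Pnpla2, the adipose triglyceride lipase, had 57.6 CPM in library 1 and 32.7 in library 2 in cardiomyocyte-like cells and 73.7 CPM in library 1 and 39.9 in library 2 in endothelial-like cells, the highest class in both libraries. The counting intervals of these classes overlapped in both libraries. Its cardiomyocyte difference was log2 1.24 ± 0.16, adjusted p = 3.81e-06.

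Outside muscle, Fabp4, Cd36, Lpl and Angptl4 were higher in endothelial-like cells than in the other classes. The same edgeR fit set each of the 6 classes against the average of the other 5, without cardiomyocyte-like cells. In endothelial-like cells 10 of 32 genes were higher and 0 lower, where 26.1% of all genes were called, 2095 of 13937 higher and 1537 lower. No member was called lower in endothelial-like cells by DESeq2 either, and 0 fell below 0 at an unadjusted p under 0.05 in edgeR. Fabp4 (log2 3.96 ± 0.15, adjusted p = 1.14e-11), Cd36 (log2 3.29 ± 0.19, adjusted p = 1.36e-09) and Lpl (log2 1.83 ± 0.24, adjusted p = 2.25e-05) led, followed by Angptl4 at 1.56 and Pnpla2 at 1.20. Etfb, Acadl, Fabp3, Eci1 and Hadhb were higher by 0.42 to 0.87. The 12 cardiomyocyte markers moved with this class: they summed to 14381 and 4772 CPM in endothelial-like cells, the highest of the 6 classes in both libraries, against 8552 to 12690.4 and 1993 to 3355 elsewhere, with none at 0. Their part in these results was not tested for the 8 genes other than Cd36 and Fabp4. Cd36 and Fabp4 were above all 12 markers when each was set against its cardiomyocyte-like level, in both libraries. Of the 33 genes, those above all markers in both libraries numbered 2 in endothelial-, 4 in fibroblast- and 2 in macrophage-like cells. They numbered 1 in each of endocardial-, pericyte-, and epicardial or mesothelial-like cells. The share of all genes above all markers was not computed. The bar was the highest single marker, at 161% and 68.6% of its cardiomyocyte-like level in endothelial-like cells in libraries 1 and 2. In fibroblast-like cells it was 75.0% and 29.6%, so these numbers do not compare between classes. The 8 adipocyte markers summed to 708 and 656 CPM in endothelial-like cells, of which Ghr, the growth hormone receptor, gave 708 and 654. In library 1 the other 7 were at 0, and in library 2 they were at 0 (Cfd, Retn, Lep and Adrb3) or at most 0.823 CPM (Adipoq, Plin1 and Slc7a10). Over the other 5 classes outside muscle the sum ranged over 286 to 1722 CPM in library 1 and 124 to 1429 in library 2. The lowest differences, Acaa2 at -0.26, Mlycd at -0.20 and Slc25a20 at -0.03, did not pass (adjusted p = 0.386, 0.566 and 0.968 in edgeR). Without the replicate block, that is with the classes of a library unpaired, edgeR left 4 calls: Fabp4, Cd36, Lpl and Angptl4.

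**Figure D3:**
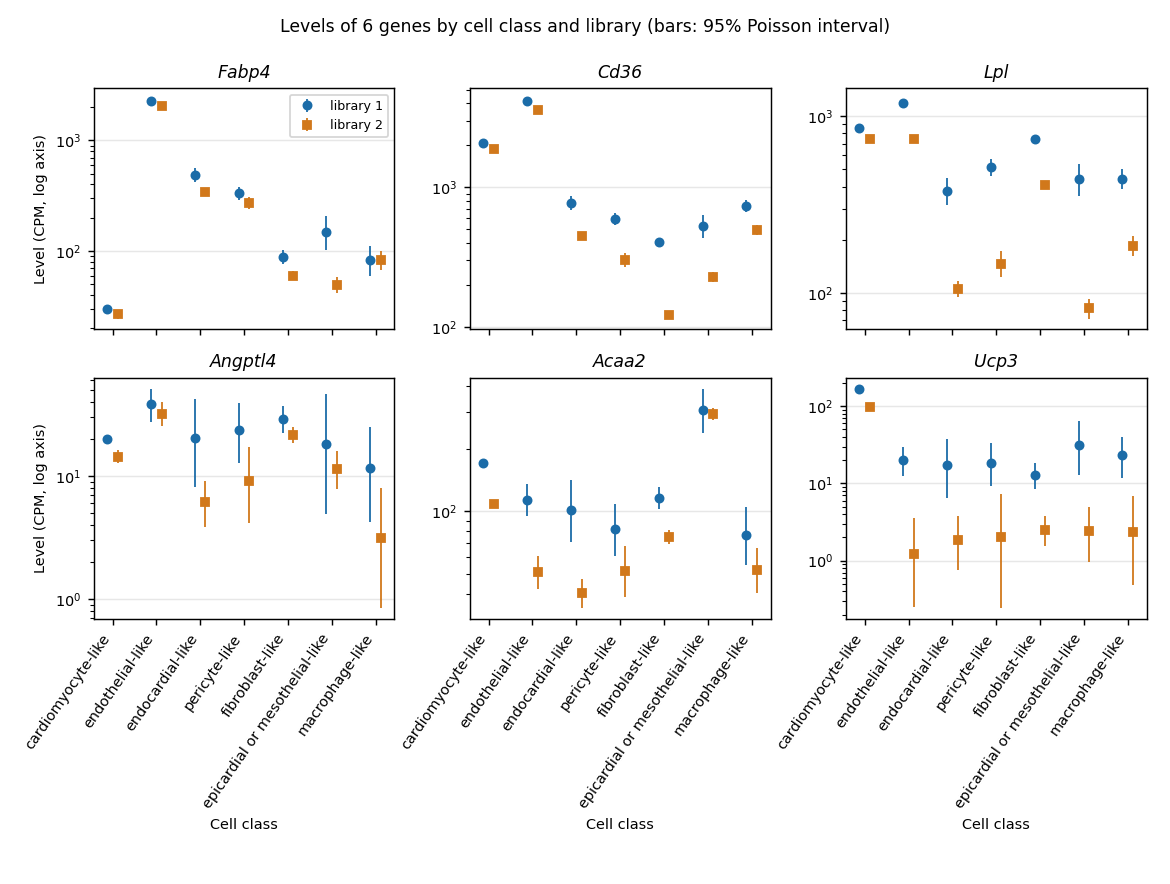
CPM on a log axis (y) of 6 genes in 7 classes (x), with library 1 as circles, library 2 as squares and 95% Poisson intervals as bars, which cover counting error only. Fabp4 and Cd36 peak in endothelial-like cells in both libraries, Acaa2 in epicardial or mesothelial-like cells and Ucp3 in cardiomyocyte-like cells.

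Epicardial or mesothelial-like cells stood out by Acaa2, at 307 CPM in library 1 (counting interval 239 to 389.7) and 295 in library 2 (276 to 316). No other class outside muscle exceeded 116 or 75.1 CPM. In library 1 the highest cardiomyocyte marker in these cells stood at 140.9% of its cardiomyocyte-like level. The lower end of the Acaa2 interval there, set against its own cardiomyocyte-like level, did not pass that. In library 2 the highest marker stood at 29.2% of its cardiomyocyte-like level. The Acaa2 interval lay above the cardiomyocyte-like level of Acaa2 in both libraries (171 CPM in library 1 and 108 in library 2). The part of muscle RNA in these values was not tested. The difference from the other 5 classes was log2 2.18 ± 0.17, adjusted p = 4.97e-08. In all, 5 of 32 genes were higher and 3 lower, where 34.9% of all genes were called, 2853 of 13937 higher and 2016 lower. Echs1 (log2 0.85 ± 0.25, adjusted p = 0.0134), Etfb, Decr1 and Acadm were the other higher genes, the last 3 by 0.50 to 0.67. Acot2 lay at 0.83 and did not pass (adjusted p = 0.0889 in edgeR). Fabp4 (log2 -1.84 ± 0.25, adjusted p = 2.06e-05), Lpl and Cd36 were lower, the last pair by -1.04 and -0.99. Plin5 and Dgat2 had the log2 estimates -2.93 and -1.46, from 4.52 and 0.345 CPM of Plin5 and 18.1 and 2.07 of Dgat2, and did not pass (adjusted p = 0.0729 and 0.138). Library 1 held only 51 of these cells. With a stricter cell filter 11 genes were called higher and the calls of Lpl and Cd36 were lost, and without the replicate block only Acaa2 and Fabp4 kept theirs.

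Fibroblast-like cells were higher in Angptl4 (28.99 CPM in library 1 and 21.5 in library 2, log2 0.91 ± 0.21, adjusted p = 0.00373), Lpl (747 CPM in library 1 and 406 in library 2, log2 0.83 ± 0.25, adjusted p = 0.0213) and Etfa (log2 0.44). They were lower in Fabp4 (log2 -1.96 ± 0.22, adjusted p = 2.78e-06), Cd36 (log2 -1.65 ± 0.26, adjusted p = 0.000132) and Pnpla2 (log2 -0.65 ± 0.21, adjusted p = 0.0261), with 35.6 and 10.3 CPM of Pnpla2 in libraries 1 and 2. The secreted lipase and its inhibitor were thus both higher in fibroblast-like cells, with Cd36 and Fabp4 lower. Thus 3 of 32 genes were higher and 3 lower, where 30.5% of all genes were called, 2395 of 13937 higher and 1855 lower. Plin5, at 0.51, did not pass (adjusted p = 0.539 in edgeR). DESeq2 called Angptl4 alone as higher, and without the replicate block only Fabp4 and Cd36 kept their calls.

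Macrophage-like cells were higher in Slc27a1 (146 CPM in library 1 and 67.2 in library 2, log2 1.02 ± 0.29, adjusted p = 0.0110) and Cpt1a (log2 0.52 ± 0.15, adjusted p = 0.0102). The other 5 classes outside muscle had 85.9 to 127 and 17.7 to 21.3 CPM of Slc27a1, below macrophage-like cells in both libraries. 7 genes were lower, led by Fabp4 (82.6 CPM in library 1 and 82.8 in library 2, log2 -1.77 ± 0.23, adjusted p = 1.18e-05), Angptl4 (11.5 CPM in library 1 and 3.12 in library 2, log2 -1.64 ± 0.42, adjusted p = 0.00534) and Acot2 (3.84 CPM in library 1 and 5.47 in library 2, log2 -1.33 ± 0.50, adjusted p = 0.0496), then Hadh, Acaa2, Etfb and Hadhb at -0.76 to -0.44. In this class 37.5% of all genes were called, 2775 of 13937 higher and 2452 lower. Dgat2 and Acsl1, at 0.71 and 0.58, did not pass (adjusted p = 0.331 and 0.108). With doublets kept, the lower calls of Hadh, Acaa2, Etfb and Hadhb were lost, and without the replicate block only Fabp4, Angptl4 and Cpt1a kept theirs.

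Endocardial-like cells, which line the heart chambers, were higher in Fabp4, at 489 CPM in library 1 and 342 in library 2 (log2 1.07 ± 0.18, adjusted p = 0.000349), below endothelial-like cells in both libraries. Eci2 was also higher (84.4 CPM in library 1 and 44.9 in library 2, log2 0.70 ± 0.21, adjusted p = 0.0305). Lpl (375 CPM in library 1 and 105 in library 2, log2 -0.91 ± 0.31, adjusted p = 0.0474), Acads (8.73 CPM in library 1 and 7.18 in library 2, log2 -0.91 ± 0.29, adjusted p = 0.0389) and Acaa2 (log2 -0.69) were lower. In this class 19.1% of all genes were called, 1674 of 13937 higher and 989 lower. Plin5 at 0.46 and Angptl4 at -0.82 did not pass (adjusted p = 0.764 and 0.103). Of these 5 calls, that of Fabp4 alone held under each of the 8 alternative fits. In pericyte-like cells Fabp4 was higher (334 CPM in library 1 and 271 in library 2, log2 0.55 ± 0.19, adjusted p = 0.0480) and Cpt1a lower (40.2 CPM in library 1 and 48.6 in library 2, log2 -0.74 ± 0.17, adjusted p = 0.00482), where 22.9% of all genes were called, 1666 of 13937 higher and 1526 lower. Plin5, Dgat2 and Acot2 had estimates of 0.69 to 1.13 and Slc25a20 and Cd36 of -0.82 and -0.57, none past the threshold (lowest adjusted p = 0.0632). The pericyte Fabp4 call was lost in DESeq2, without composition scaling and without the replicate block.

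**Figure D4:**
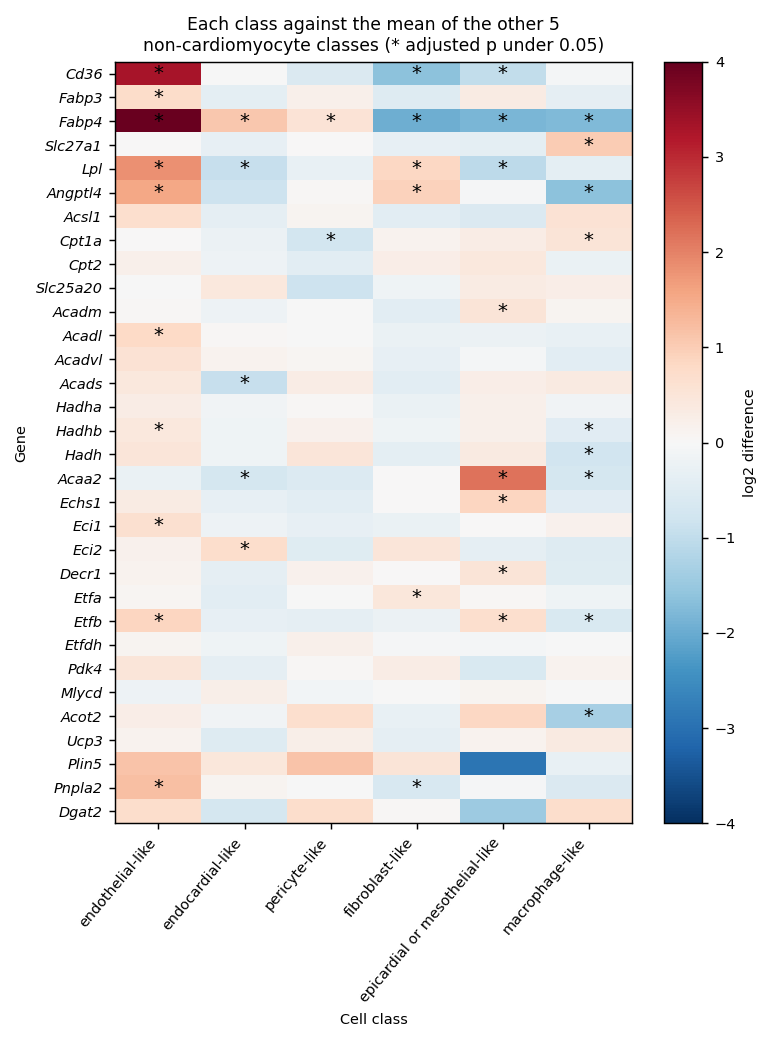
Log2 difference (colour) of 32 genes (rows) in each of 6 classes (columns) against the mean of the other 5, with a star at an edgeR adjusted p under 0.05. Endothelial-like cells show stars and red for Fabp4, Cd36, Lpl, Angptl4 and Pnpla2, and Acaa2 is the deepest red outside that column. Plin5 in epicardial or mesothelial-like cells, at -2.93, has no star.

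Cardiomyocyte-like cells fell into clusters that differed by library. In library 1 clusters of 3887, 2094 and 1221 cells had 2113, 1942 and 2058 CPM of Cd36 and 599.6, 599.9 and 511 of Pdk4. Library 2 was mostly another cluster (1897 cells), with 1846 CPM of Cd36 and 522 of Pdk4. Its 218 cells in the first cluster had 1004 CPM of Pdk4 (counting interval 955 to 1056), the highest value among the clusters. Between the libraries, 32 of 33 genes had the lower CPM in cardiomyocyte-like cells of library 2, with a median log2 ratio of -0.36, while 55.7% of 12221 genes with at least 100 counts did, with a median of -0.05. Etfdh was the exception. Library and any biological difference between the samples cannot be told apart. A small cluster led by atrial genes (80 cells in library 1) had 662 CPM of Fabp3 and 213 of Etfb, above the whole class, and 69.3 of Ucp3 and 1142 of Cd36, below it. Its cells had a median of 2.45% mitochondrial counts, against 0.227% in the largest cardiomyocyte-like cluster, and the part of this in the values was not tested.

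An unnamed cluster of 217 cells in library 1 and 64 in library 2 carried cardiomyocyte markers with a median of 4.93% mitochondrial counts. Hba-a2, Hbb-bt and Hba-a1, globin genes of red cells, were among its 10 leading genes, and the 7 erythroid markers summed to 12540.5 and 4588 CPM in libraries 1 and 2 (0 and 2 of them at 0), against 110.2 and 209 in cardiomyocyte-like cells. In it, 23 and 21 of the 33 genes exceeded their cardiomyocyte-like level in libraries 1 and 2, with median ratios of 1.54 and 1.47. Of all 11549 and 9572 genes with at least 100 counts in cardiomyocyte-like cells of the library, 46.7% and 47.03% did, with median ratios of 0.945 and 0.949. Across the 33 genes the ratio correlated negatively with the length of the gene (Spearman's rho -0.44 and -0.39, a description over genes that share these libraries). Etfb had 529.8 and 332 CPM there, 10.8 and 13.8 times the cardiomyocyte-like level. Acadvl had 5.72 and 6.75 times the level, Acads 4.96 and 4.48, Fabp3 4.66 and 4.45, and Fabp4 16.6 and 10.8. Cd36, Pdk4, Ucp3, Etfdh and Cpt1a lay below the cardiomyocyte-like level in both libraries, at 0.275 to 0.780 times. These genes were chosen after their values were seen, and the ratios have no test. The part of mitochondrial share, red cell RNA and gene length in them was not tested. Other unnamed clusters with cardiomyocyte markers, described in library 1 alone, differed from each other. In that of 946 cells 25 of the 33 genes exceeded their cardiomyocyte-like level (median ratio 1.31), against 61.02% of all genes (1.15). In that of 133 cells 12 of the 33 did (median ratio 0.825), against 50.1% of all genes (1.001).

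The last comparison set cardiomyocyte-like cells with at least 1 GFP UMI against the same number of cells without one, matched on total UMIs within each library (1338 and 516 pairs, median depths 6609 and 6609 in library 1, 9788 and 9788 in library 2). The labels do not say what carries the GFP sequence, and a cell without a GFP UMI may still express it. GFP had 43.5 CPM in library 1 and 43.2 in library 2 in cardiomyocyte-like cells and 4.34 CPM in library 1 and 2.06 in library 2 in endothelial-like cells. Ep300 and Crebbp did not pass the test (log2 0.09 ± 0.07 and 0.10 ± 0.07, adjusted p = 0.737 and 0.648 in edgeR). Of the 33 fatty acid genes, all were tested and 0 were called by edgeR, with 7 at an unadjusted p under 0.05 and 0 called by DESeq2, where edgeR called 2.04% of 12820 genes, 0.476% as higher and 1.57% as lower. That fit has 1 residual degree of freedom for a gene, so its p-values lean on the spread that edgeR shares over all genes tested. Log2 differences ran from -0.45 to 0.06 with a median of -0.05, against 0.0002 for all genes tested. Of the 33 estimates, 26 lay below 0. The median of all genes lay just above 0, so genes below 0 did not outnumber those above it, and their exact share was not computed. The sign was the same in both libraries for 16 genes, 13 lower and 3 higher.

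**Figure D5:**
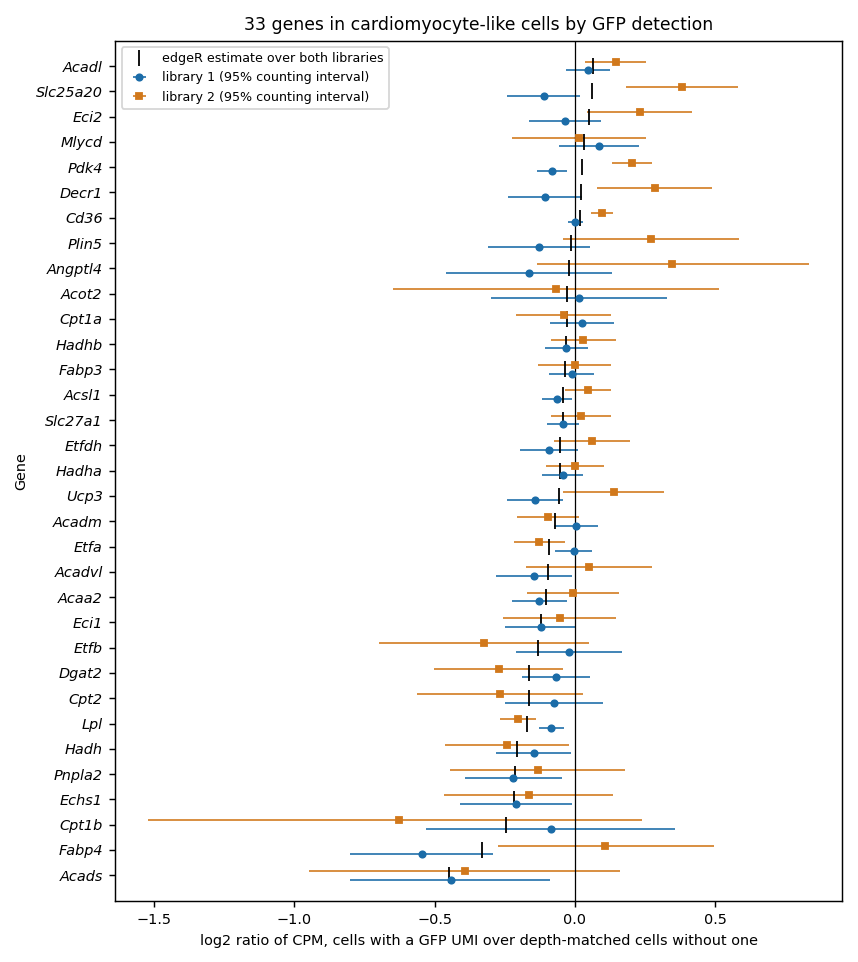
Log2 ratio of CPM (x axis) between cells with a GFP UMI and depth-matched cells without one for 33 genes (y axis), with library 1 as circles, library 2 as squares, 95% exact intervals that cover counting error only as bars and the edgeR estimate as a tick. The estimates run from -0.45 to 0.06, and several genes lie on opposite sides of 0 in the libraries.

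Acads had 11.2 CPM with a GFP UMI and 15.2 without in library 1, and 8.98 and 11.8 in library 2, a difference of log2 -0.45 ± 0.17, adjusted p = 0.190, the lowest of the 33. Fabp4 had 20.9 CPM with a GFP UMI and 30.4 without in library 1, and 21.5 and 19.9 in library 2, with library ratios of log2 -0.55 (-0.80 to -0.29) and 0.11 (-0.28 to 0.49) and log2 -0.33 ± 0.13, adjusted p = 0.205. Only in library 1 did the counting interval lie below 0, and there the 10 endothelial markers summed to 29.2 CPM with and 38.98 without (49.3 and 56.9 in library 2). Their part in the difference was not tested. Without matching on depth, Fabp4 and Acads were called lower by edgeR, and with matching within clusters the Fabp4 estimate lay above 0. Cpt1b, the third lowest, had 8.23 CPM with a GFP UMI and 8.74 without in library 1, and 3.52 and 5.43 in library 2 (log2 -0.25 ± 0.23, adjusted p = 0.777). Lpl and Hadh were the only genes of the 33 whose counting intervals excluded 0 on the same side in both libraries. The share of all genes that did so was not computed. Of the cardiomyocyte markers, Ryr2, Myh6, Tnnt2, Myl2, Mybpc3 and Pln also did so, above 0, and these intervals cover counting error only. Lpl had 789 CPM with a GFP UMI and 836 without in library 1, and 661 and 761 in library 2, ratios of -0.08 (-0.13 to -0.04) and -0.20 (-0.27 to -0.14) and log2 -0.17 ± 0.07, adjusted p = 0.218. Hadh had ratios of -0.15 (-0.28 to -0.01) and -0.24 (-0.46 to -0.02) and log2 -0.21 ± 0.08, adjusted p = 0.223. The highest 3 were Acadl (log2 0.06 ± 0.07, adjusted p = 0.817), Slc25a20 (log2 0.06 ± 0.08, adjusted p = 0.871) and Eci2 (log2 0.05 ± 0.08, adjusted p = 0.897). Acadl had 261 CPM with a GFP UMI and 252 without in library 1, and 259 and 234 in library 2. Slc25a20 had 91.9 CPM with a GFP UMI and 99.3 without in library 1, and 85.5 and 65.7 in library 2, and Eci2 had 94.2 CPM with a GFP UMI and 96.5 without in library 1, and 92.4 and 78.8 in library 2. For Slc25a20 and Eci2 the value with a GFP UMI was the larger in library 2 alone. For Pdk4 the counting intervals lay on opposite sides of 0, -0.08 (-0.13 to -0.03) in library 1 and 0.20 (0.13 to 0.27) in library 2. The groups were not alike in all else: in library 1 the cluster of 1221 cells made up 16.1% of cells with a GFP UMI and 25.04% of those without. Matching within clusters left 0 of the 33 called.

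Other genes of lipid metabolism were taken as 7 lists of 97 genes and set against the mean of the 6 other classes in the same edgeR fit, where 35.8% of all genes were higher and 30.7% lower, with a median of 0.04. Among transcriptional regulators, 12 of 18 tested genes were higher and 2 lower (median log2 2.37). The greatest differences over all lists were in the nuclear receptors Esrrb (147 CPM in library 1 and 209 in library 2 in cardiomyocyte-like cells, log2 5.57 ± 0.23, adjusted p = 4.43e-11), Ppara (347 CPM in library 1 and 491 in library 2, log2 5.07 ± 0.22, adjusted p = 5.93e-11) and Esrrg (1361 CPM in library 1 and 2011 in library 2, log2 4.40 ± 0.19, adjusted p = 5.93e-11). For ketone body genes, 3 of 4 tested genes were higher and 1 lower (median log2 1.60). For peroxisomal beta-oxidation, 7 of 12 tested genes were higher and 0 lower (median log2 0.75), and for other mitochondrial acyl-CoA genes, 12 of 18 tested genes were higher and 2 lower (median log2 1.25). In the list of other uptake and binding genes the balance was the opposite: 2 of 13 tested genes were higher and 8 lower (median log2 -0.63). Acsl5, an acyl-CoA synthetase, had 0.829 CPM in library 1 and 2.52 in library 2 in cardiomyocyte-like cells and 47.7 CPM in library 1 and 46.1 in library 2 in endothelial-like cells (log2 -4.19 ± 0.30, adjusted p = 4.4e-09). Meox2, a transcription factor of heart endothelium, had 2.18 CPM in library 1 and 3.26 in library 2 against 567 CPM in library 1 and 1043 in library 2 (log2 -3.76 ± 0.31, adjusted p = 2.63e-08). For lipid synthesis and storage, 8 of 16 tested genes were higher and 6 lower (median log2 0.51), with Elovl6, a fatty acid elongase, the lowest (0.639 CPM in library 1 and 0.841 in library 2, log2 -3.71 ± 0.25, adjusted p = 2.68e-09). For lipolysis, 5 of 7 tested genes were higher and 1 lower (median log2 0.81).

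In the GFP comparison 4 genes of these lists were called, all lower in cells with a GFP UMI and in both libraries: Ces1d, a carboxylesterase (124 CPM with a GFP UMI and 145 without in library 1, and 63.4 and 90.4 in library 2; log2 -0.36 ± 0.08, adjusted p = 0.00227), G0s2, an inhibitor of Pnpla2 (24.1 CPM with a GFP UMI and 31.9 without in library 1, and 9.51 and 17.02 in library 2; log2 -0.54 ± 0.13, adjusted p = 0.0105), Plin2, a lipid droplet coat (28.04 CPM with a GFP UMI and 34.4 without in library 1, and 21.1 and 34.2 in library 2; log2 -0.47 ± 0.11, adjusted p = 0.0108), and Lpin1, a phosphatidate phosphatase and coactivator (108 CPM with a GFP UMI and 130.4 without in library 1, and 85.5 and 99.4 in library 2; log2 -0.28 ± 0.07, adjusted p = 0.0231). Of all genes 1.57% were called lower. All 4 calls were lost in DESeq2, without the library block and after thinning to 3000 UMIs, with each estimate still below 0. Ces1d and G0s2 also lost theirs when cells were matched within clusters. Pnpla2, the lipase that G0s2 inhibits, had 49.1 CPM with a GFP UMI and 57.2 without in library 1, and 29.6 and 32.4 in library 2 (log2 -0.21 ± 0.10, adjusted p = 0.360).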

How the data were processed

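Droplet RNA was measured with 3′ v3 chemistry in 2 right ventricle libraries. The authors deposited raw UMI counts per gene and barcode, and per the file headers Cell Ranger 6.0.0 made them. Beside it, fastp, Trimmomatic, Seurat, edgeR and the build GRCm38 (mm10) are named in the submitters' processing notes. The sources used here do not give whether counting used strand or intronic reads. Reads of genes on opposite strands can then be mixed for Etfdh, Fabp3, Hadha, Ucp3, Echs1, Acadvl and Eci2.

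Barcodes with at least 500 UMIs, 200 genes and at most 25% mitochondrial counts passed. Simulated doublets marked 864 and 677 barcodes in libraries 1 and 2, which were removed with clusters of over 40% doublets. Cells were clustered (Leiden, resolution 1, 30 principal components of 2000 variable genes, members left out) with scikit-learn 1.9.0 and leidenalg 0.10.2 in Python 3.11.15. Classes were named from marker lists, and the rule for naming was set after the data had been seen, so names are rebuilt here. Counts were summed per library and class over 7 classes, and edgeR 4.0.16 in R 4.3.3 fitted a quasi-likelihood model with TMM scaling, filterByExpr and the library as a block. The classes of 1 library come from 1 suspension, so the library number pairs them. Recovery was tested on simulated data: 86.7% of genes changed by log2 1 were called across classes. In the GFP comparison 58.9% were. Both simulations used the same set dispersion, which was not the one fitted in the GFP comparison. A change of log2 1 also exceeds every member difference by GFP. So 58.9% does not say how many differences of their size would be called.

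The depth was 57982200 and 50199793 UMIs. Intervals at 95% (exact Poisson for levels) cover counting error only. The members and lists were chosen with earlier results of these data known. Full values are given for members with the 3 largest or smallest differences in a comparison, for those not highest in cardiomyocyte-like cells and for those called by GFP. Of the other lists, the 3 largest and smallest differences and the genes called by GFP are named. Alternatives were DESeq2 1.42.0, no composition scaling, no filter, no replicate block, other clustering resolutions, a stricter cell filter, doublets kept and other GFP matching.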

Additional observations from a re-analysis of the deposited data

How the results depend on the processing

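Cardiomyocyte calls of the 33 genes stayed within 1.5 times of their number in each alternative, but without composition scaling 2689 of all genes were higher and 7031 lower, and Acads turned to log2 -0.11. Calls in the other classes rest on 2 libraries and were less stable. The cause was not tested.

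Without the replicate block, members called higher numbered 1 in endocardial-, 4 in endothelial-, 1 in epicardial or mesothelial-, 0 in fibroblast-, 1 in macrophage- and 0 in pericyte-like cells, and members called lower numbered 0 in endocardial-, 1 in epicardial or mesothelial- and 2 in macrophage-like cells. In the GFP comparison the block decided all calls, with 0 of all genes higher and 0 lower without it. DESeq2 called 1 member higher and 1 lower in endocardial-like cells, 3 higher in epicardial or mesothelial-, 1 higher in fibroblast-, 3 lower in macrophage- and 0 higher in pericyte-like cells. By GFP it called 2 of all genes higher and 13 lower.

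With doublets kept, 1 member was higher and 10 lower in endocardial-like cells, 19 were higher in endothelial-, 1 was lower in epicardial or mesothelial-, 6 were higher and 3 lower in macrophage- and 4 lower in pericyte-like cells, and the macrophage estimates of Hadhb and Etfb turned to 0.0930 and 0.0495. At Leiden resolution 0.5, endocardial-like cells had 1 higher and 1 lower member and macrophage-like cells 3 lower. At resolution 2 these numbers were 1, 0 and 3. The stricter cell filter gave 11 higher and 1 lower in epicardial or mesothelial- and 3 lower in pericyte-like cells. No filter on low counts gave 7 lower in epicardial or mesothelial- and 3 lower in pericyte-like cells. No composition scaling gave 4 lower in macrophage- and 0 higher in pericyte-like cells.

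Of all genes in the GFP comparison, 113 were higher without composition scaling, 143 without matching on depth, 2 after thinning (23 lower) and 40 with at least 2 GFP UMIs. Without matching on depth 2 members were lower. Fits that left out a library are values with no test: the cardiomyocyte median of the members was 2.20 without library 1 and 1.53 without library 2. Cpt1b, with 317 and 88 UMIs in cardiomyocyte-like cells of libraries 1 and 2, missed the count filter of the main fit.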
